A study of Mus musculus with 6 samples.

Results

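Inguinal white adipose tissue (IngWAT), the subcutaneous fat of the groin, was described here in *Hdac3* floxed mice alone, by the absolute level of each gene and without any comparison of genotypes. The series holds 6 RNA-seq samples, and the 3 labelled as floxed replicates 1, 2 and 3 were chosen by that label. Each holds RNA of 2 or 3 C57Bl6 mice, pooled to 500 ng. The mice were 5 to 9 months old and kept on chow, and the methods give males. Floxed mice carry *Hdac3* alleles with loxP sites around the part that Cre removes, and they served the study as controls for mice with a Cre driven by the adiponectin promoter, which acts in adipocytes. The labels do not spell out that the floxed mice carried no Cre. The 3 pools are replicates from separate mice of 1 group, so no test between groups was possible and every value below is a level with its spread (± SD, n = 3). Expression is in cpm, the count of a gene per 1000000 counts on all genes of that pool. Where 3 values are given in a row, they belong to replicates 1, 2 and 3 in that order.

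White fat stores triglyceride in adipocytes with 1 large lipid droplet. These cells take up fatty acids that lipoprotein lipase frees in the capillaries, make and desaturate further fatty acids from glucose, bind them to glycerol, and release them again through a chain of lipases that hormones control. They also secrete hormones such as leptin and adiponectin. Around them lie stromal progenitors, capillaries, nerves, macrophages and, in the inguinal pad, a lymph node. A bulk library mixes all of them, so fewer cells of a type and less RNA per cell cannot be told apart.

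Counts on genes numbered 35200685, 30285912 and 30240920 in floxed replicates 1, 2 and 3, and 3 counts corresponded to between 0.0852 and 0.0992 cpm, a floor for counting error only. Reads on genes made up 62.7%, 62.2% and 56.0% of all aligned reads that were tallied, and alignments to more than 1 place 29.4%, 28.3% and 35.2%, so replicate 3 stood apart in both. The pools also differed by the base composition of the genes. When the genes were cut into 5 groups by GC content, in the group with the lowest, the median deviation from the mean of the 3 pools was -0.42 on the log2 scale in replicate 1, -0.01 in replicate 2 and 0.43 in replicate 3. In the group with the highest it was 0.69, 0.08 and -0.77 in the same order. By these medians, replicates 1 and 3 thus lay on opposite sides of replicate 2 at both ends of the GC scale. RNA quality was not given per pool, and its part in this was not tested. Its part in the values below was not tested either. The difference by GC content remains in these values, except where a value is given after each pool's curve on GC content was subtracted. This was done for 13 lists, and their ranges are given with the list or in the section on processing.

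**Figure D1:**
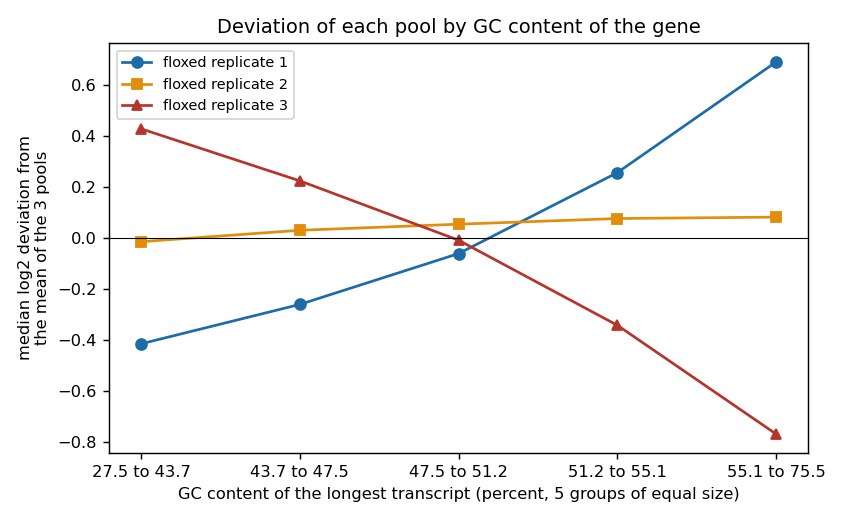
Median log2 deviation of each floxed pool from the mean of the 3 pools (y axis) in 5 groups of 13856 detected genes ordered by the GC content in percent of their longest transcript (x axis). Replicate 1 rises from -0.42 to 0.69, replicate 3 falls from 0.43 to -0.77, and replicate 2 stays between -0.01 and 0.08.

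Single genes were set beside the labels and methods. *Hdac3*, whose alleles are floxed but which should be intact without Cre, was present at 89.2, 110.2 and 89.6 cpm. With no other genotype beside it, this level cannot check the floxed label. The Y-linked genes *Ddx3y*, *Eif2s3y*, *Kdm5d* and *Uty* summed to 272, 410 and 555 cpm, and *Xist*, the RNA of the inactive X chromosome, stood at 0.227, 0.495 and 0.860 cpm. All 3 pools therefore carried male RNA. *Ddx3y*, *Eif2s3y* and *Uty* are AT-rich, with a GC content of 36.1%, 36.4% and 35.8%. When each pool's curve on GC content was subtracted, the highest pool for the 4 Y-linked genes was only 1.11-fold above the lowest, against 2.04-fold before.

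A gene was called detected at a mean of at least 1 cpm. Of 46517 annotated genes, 13893 passed, 12794 reached 1 cpm in every pool, and 22422 had no count in any pool. Protein coding genes gave 12926 of the detected genes, out of 21547, and 98.5% ± 0.0845 of the counts. Most detected genes were of middle or low level, with 4480 between 1 and 10 cpm, 7554 between 10 and 100 cpm, 1788 between 100 and 1000 cpm and 71 at 1000 cpm or more. Expression was concentrated in few of them. The 10 leading genes took 17.6% ± 1.93 of all counts and the 100 leading genes 32.6% ± 0.170, while 559 genes were needed for 50% of the counts and 5436 for 90%. The share of the 10 leading genes thus differed more between pools than that of the 100 leading genes.

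The gene with the most counts was *Scd1*, the stearoyl-CoA desaturase that puts the first double bond into saturated fatty acids, with 39197, 46191 and 27883 cpm in replicates 1, 2 and 3. Every pool thus gave between 2.79% and 4.62% of its gene counts to this enzyme. *Fabp4*, the fatty acid carrier of the adipocyte cytosol, followed among nuclear genes with 24885, 24939.6 and 14069 cpm, and replicate 3 was the low one. *Car3*, a carbonic anhydrase abundant in white fat, stood at 15180.3, 17279.5 and 12625 cpm. *Lpl*, which encodes lipoprotein lipase, stood at 10142, 12946 and 14204 cpm and was highest in replicate 3. *Cd36*, the fatty acid transporter of the plasma membrane, stood at 6469, 8128 and 7071 cpm, with no pool far from the others. On GRCm38 these 5 genes lie, from end to end, with *Scd1* at chr19:44394455.0-44407879.0, *Fabp4* at chr3:10204088.0-10208576.0, *Car3* at chr3:14863512.0-14872523.0, *Lpl* at chr8:68880491.0-68907448.0 and *Cd36* at chr5:17781690.0-17888801.0.

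Among the 20 leading genes were 6 of the mitochondrial genome. *mt-Co1*, a subunit of cytochrome c oxidase, gave 23361, 28581 and 47342 cpm, and *mt-Cytb*, a subunit of complex III, gave 16068, 15471 and 26967 cpm. *mt-Nd5*, *mt-Nd1*, *mt-Nd2* and *mt-Nd4*, subunits of complex I, had means between 8235 and 10700 cpm. All 6 were highest in replicate 3. Their GC content lay between 35.6% (*mt-Nd4*) and 39.9% (*mt-Co1*), within the group with the lowest GC content. The part of GC content in their order among pools was not tested. The other nuclear genes of the leading 20 were *Gsn* (6688 ± 3662 cpm), which encodes the actin-severing protein gelsolin, *Plin4* (5728 ± 3923 cpm), a coat protein of lipid droplets, *Cyp2e1* (4189 ± 1314 cpm), a cytochrome P450, *Cfd* (4087 ± 3633 cpm), the protease adipsin, *Sparc* (3875 ± 574 cpm), a matrix glycoprotein, *Pck1* (3762 ± 1399 cpm), an enzyme of glyceroneogenesis, *Txnip* (3685 ± 1006 cpm), an inhibitor of thioredoxin and of glucose uptake, the nuclear non-coding RNA *Neat1* (3159 ± 997 cpm) and *Adipoq* (3145 ± 467 cpm), which encodes adiponectin. Of the 20 leading genes of each pool, 14 were shared by all 3 pools. *Plin4* and *Cfd* had the widest range of the 20, with 9152, 6583 and 1447 cpm and with 8208, 2705 and 1347 cpm in replicates 1, 2 and 3.

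**Figure D2:**
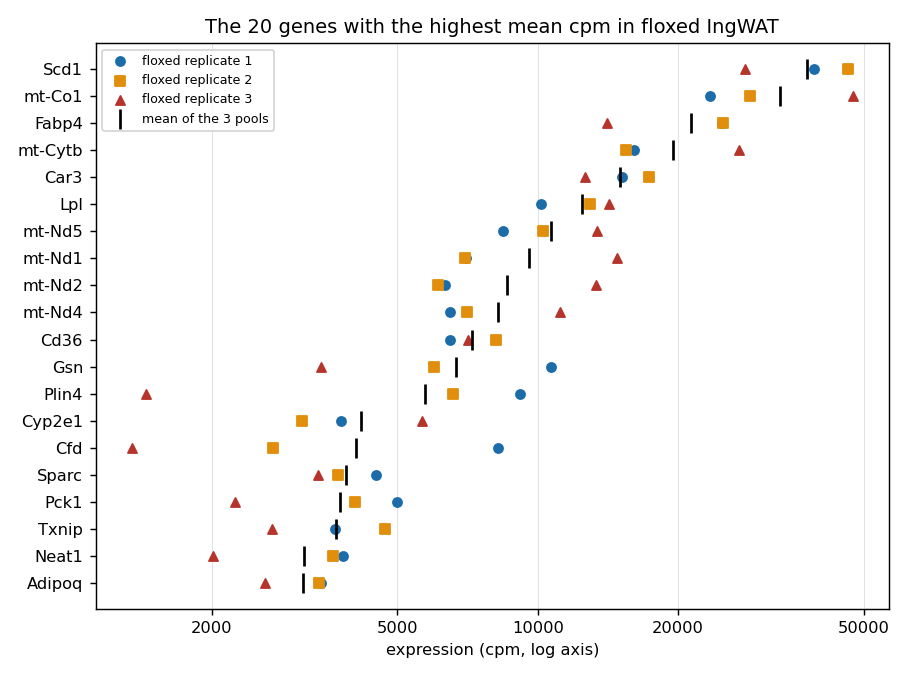
Expression in cpm (x axis, log scale) of the 20 genes with the highest mean (y axis), with 1 marker for each floxed pool and a bar for the mean. The 6 genes of the mitochondrial genome are highest in replicate 3, and *Plin4* and *Cfd* spread most.

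Counts favour long transcripts, and orders by cpm and shares of counts are not corrected for length. Levels were therefore also compared between genes after division by the length of the principal transcript (TPM, which sums to 1000000 per pool). On this scale *Fabp4* led with 54739 ± 16258 TPM, ahead of *mt-Co1* with 49337 ± 18811 TPM and *mt-Cytb* with 39210.3 ± 12910.0 TPM, and these 3 means lay within the spread among pools. *mt-Nd1* (23067 ± 10781 TPM), *Car3* (20629 ± 3505 TPM), *mt-Nd2* (19042 ± 9039.5 TPM), *Scd1* (18018 ± 4647 TPM), *mt-Nd4* (13756 ± 4241 TPM), *mt-Nd5* (13515 ± 3233 TPM) and *Cfd* (10107 ± 8795 TPM) completed the 10 highest. *Scd1*, first by cpm, had rank 7 by this measure, with a transcript of 4832 bases against 896 for *Fabp4*. The order depended on the length used. With the length of all exons, which is 4489 bases for *Fabp4*, *mt-Co1* led, *Scd1* had rank 5 and *Fabp4* rank 9. Of the 20 leading genes by cpm, 16 were also among the 20 leading genes by TPM.

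Reads with more than 1 place in the genome were given to no gene, so genes with near-identical copies can be counted too low. Of the 13 protein coding genes of the mitochondrial genome, 7 reached 1 cpm, whereas *mt-Co2*, *mt-Co3*, *mt-Atp8* and *mt-Nd4l* had no count in any pool and *mt-Atp6* and *mt-Nd3* at most 3 counts. The glycolytic gene *Gapdh*, which has many processed copies, stood at 4.40 ± 1.46 cpm, and *Pgk1* and *Pgam1* at 7.57 ± 1.71 cpm and 6.93 ± 0.360 cpm. Levels of these genes, and of ribosomal protein, alpha globin, immunoglobulin and MHC genes, are uncertain for this reason.

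Promoter sequence was set beside expression for the genes at the top of the order. RefSeq promoter windows of 300 bases (250 before and 50 after the start, build GRCm38.p6) matched 19214 genes by symbol, and 15 of the 20 leading nuclear genes, the other 5 being *Scd1*, *Fabp4*, *Car3*, *Lpl* and *Neat1*. The letters TATAA, the core of the TATA box that places the start of transcription in many strongly and tissue-specifically expressed genes, were searched on the gene's strand between 40 and 20 bases upstream of the start. They were found in 7 of 49 genes at 1000 cpm or more (14.3%), against 4.49% of all 19214 genes. The share was 3.09% at 1 to 10 cpm, 2.04% at 10 to 100 cpm and 3.53% at 100 to 1000 cpm, and it was 6.79% among genes under 1 cpm. On the other strand the letters were found in 6.12% of the genes at 1000 cpm or more and in 1.75% of all genes. The median number of CG pairs in the window was 4 for genes under 1 cpm, 16, 21 and 23 in the next 3 ranges, and 14.5 at 1000 cpm or more. Detected genes thus had more CG pairs in this window than undetected ones, and the 49 matched genes at 1000 cpm or more fewer than those at 10 to 1000 cpm.

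The 60 bases upstream of the start are given below, 5′ to 3′ on the gene's strand, for 4 highly expressed genes that hold these letters (in capitals) and for *Adipoq* and *Eef1a1*, a translation factor of every cell, which do not. They were chosen for display, by whether they hold the letters, and do not stand for the starts of all genes at the top of the order. The windows are chr17:56109783-56109842 (minus strand) for *Plin4*, chr7:140763759-140763818 (plus) for *Cyp2e1*, chr3:96557897-96557956 (plus) for *Txnip*, chr6:29060161-29060220 (plus) for *Lep*, chr16:23146476-23146535 (plus) for *Adipoq* and chr9:78481725-78481784 (minus) for *Eef1a1*.
Plin4: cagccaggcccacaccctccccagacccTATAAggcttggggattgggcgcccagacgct
Cyp2e1: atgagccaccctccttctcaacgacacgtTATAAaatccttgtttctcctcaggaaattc
Txnip: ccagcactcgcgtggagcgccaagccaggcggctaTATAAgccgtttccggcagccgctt
Lep: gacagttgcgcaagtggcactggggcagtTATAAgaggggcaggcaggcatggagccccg
Adipoq: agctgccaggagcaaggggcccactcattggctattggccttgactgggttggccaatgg
Eef1a1: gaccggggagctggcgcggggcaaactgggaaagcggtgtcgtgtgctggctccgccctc
The letters began 32 bases before the start in *Plin4*, 31 in *Cyp2e1* and *Lep*, and 25 in *Txnip*. The window of *Adipoq* held 0 CG pairs in 300 bases and that of *Eef1a1* 22. A match describes these letters only and is not evidence of a working site.

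When genes were put into 17 functional classes, lipid handling and the mitochondrial genome stood far above the rest. The 111 lipid handling genes took 13.1%, 12.9% and 8.36% of the counts in replicates 1, 2 and 3 (mean 11.5% ± 2.70), and *Scd1*, *Fabp4* and *Lpl* made up 32.9%, 18.6% and 10.8% of the class. The 37 genes of the mitochondrial genome took 6.92%, 7.61% and 12.9% (mean 9.13% ± 3.26). Replicate 3 was lowest for the first class and highest for the second. The leading mitochondrial genes lie in the group with the lowest GC content, in which replicate 3 was high, and the part of this was not tested. Of TPM, lipid handling took 11.9% ± 3.24 and the mitochondrial genome 16.1% ± 5.88, so the order of the 2 means was reversed. Of the smaller classes, matrix glycoproteins and proteoglycans took 1.84% ± 0.199, and the adipokines and secreted factors that were in no other class 1.15% ± 0.422. A gene was counted in a single class, so *Lpl* fell under lipid handling, and *Cfd* and *C3* under complement. *Cfd* made up 51.7% of the complement class. Translation factors took 1.10% ± 0.0501 and the nuclear genes of the respiratory chain 0.988% ± 0.102. Heat shock proteins took 0.878% ± 0.0735, ribosomal proteins 0.816% ± 0.142, complement 0.790% ± 0.389, the cytoskeleton 0.764% ± 0.264, collagens 0.706% ± 0.369, MHC genes 0.605% ± 0.0663, and the enzymes of glucose use and the Krebs cycle 0.595% ± 0.123. Genes in none of the classes took 68.7% ± 1.09. Reads that aligned to several places entered no class. The shares of the mitochondrial genome, ribosomal proteins, MHC genes and glucose use can therefore be too low, and their places in the order are uncertain.

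Within these classes the spread among pools differed. Translation factors, led by *Eef1a1* (2584 ± 313 cpm), moved by 1.09-fold from the lowest to the highest pool, and heat shock proteins by 1.15-fold. The class of collagens moved by 3.00-fold, with 0.654%, 0.366% and 1.10%. *Col3a1* and *Col1a2*, which build interstitial fibres, stood at 925, 707 and 5438 cpm and at 425, 325 and 2363 cpm, high in replicate 3. *Col4a1*, of the basement membrane around adipocytes and capillaries, went the other way with 1896, 855 and 443 cpm. In the matrix class *Dcn* (decorin) stood at 1198, 1522 and 4190.4 cpm, *Prelp* at 1511, 1786 and 186 cpm, and *Dpt* (dermatopontin) at 992, 1019.8 and 1123 cpm, the last nearly level. Immunoglobulin genes moved by 7.36-fold and took 0.0907%, 0.0123% and 0.0180%, and keratins and globins took at most 0.0337% in any pool.

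**Figure D3:**
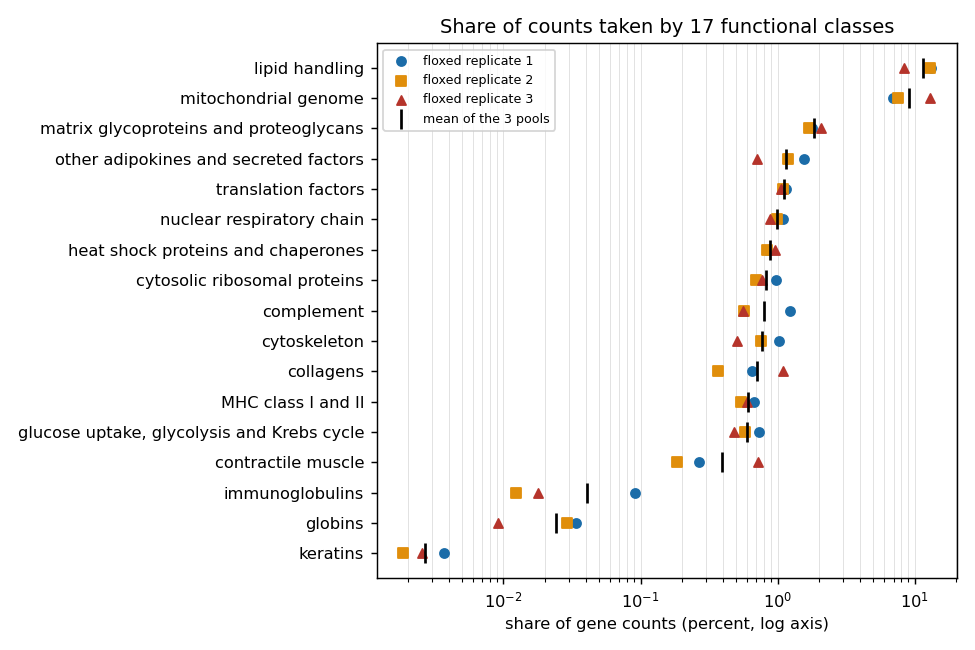
Share of gene counts in percent (x axis, log scale) taken by each of 17 functional classes (y axis), with 1 marker for each floxed pool and a bar for the mean. Lipid handling (11.5%) and the mitochondrial genome (9.13%) lead, and immunoglobulins, contractile muscle and globins have the widest ranges.

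Fatty acid uptake was represented by 21 measured genes, of which 20 were detected. Beside *Fabp4*, *Lpl* and *Cd36*, *Acsl1*, which activates fatty acids with coenzyme A, stood at 3016, 2164 and 2657 cpm, without a clear difference among pools. *Cav1*, of the caveolae that cover the adipocyte surface, stood at 1565 ± 626 cpm, and *Gpihbp1*, which holds lipoprotein lipase on the capillary wall, at 282, 188 and 53.6 cpm. A range of at least 2-fold between the highest and the lowest pool was seen in 11 of the 20 detected genes, against 43.3% of all detected genes, and *Lmf1*, needed to fold lipases, had the widest (17.4, 9.11 and 3.24 cpm). Fatty acid synthesis was uneven. Per length, *Scd1* (18018 ± 4647 TPM) stood far above *Fasn*, the fatty acid synthase (72.7 ± 44.3 TPM), and *Acly*, which makes acetyl-CoA from citrate (69.8 ± 6.87 TPM). *Fasn* gave 543, 152 and 266 cpm, and *Acly* gave 139, 116 and 145 cpm. *Acaca* and *Acacb*, the acetyl-CoA carboxylases, gave 189 ± 23.5 cpm and 302 ± 192 cpm. *Acly* and *Acaca* were near level in the 3 pools, whereas *Fasn* was high in replicate 1. *Scd2* stood at 40.9, 41.4 and 118 cpm, *Scd3* and *Scd4* were under 1 cpm, and *Elovl3* ranged most of the list (5.45, 0.297 and 1.32 cpm).

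Glyceroneogenesis and triglyceride synthesis were led by *Pck1*, with 4997, 4047 and 2242 cpm, and by *Gpd1*, which makes glycerol phosphate from a glycolytic intermediate, with 674, 334 and 144 cpm. *Dgat2* and *Dgat1*, which add the last fatty acid, stood at 307, 234 and 94.9 cpm and at 222, 158 and 212 cpm. The 2 differed in pattern, *Dgat2* being lowest in replicate 3 and *Dgat1* near level. *Gpat2* had no count in any pool, and *Mogat2* ranged most (4.43, 2.48 and 0.0992 cpm), with 3 counts in replicate 3, at the floor. Of this list 9 of 20 detected genes had a 2-fold range, a share near that of all detected genes.

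The genes of the lipid droplet and of lipolysis had the widest summed range of the metabolic lists. They gave 24510, 14527 and 4471 cpm in replicates 1, 2 and 3. *Pnpla2*, which encodes the first lipase of the chain (ATGL), stood at 4144, 1728 and 483 cpm, and *Lipe*, which encodes hormone-sensitive lipase, at 1929, 863 and 184 cpm. *Plin1*, the coat protein that guards the droplet, stood at 821, 396 and 92.9 cpm, *Cidec*, which fuses droplets, at 4601, 2366 and 875 cpm, and *G0s2*, an inhibitor of ATGL, at 423, 159 and 18.8 cpm. All 5 were highest in replicate 1 and lowest in replicate 3. *Abhd5*, the activator of ATGL, was level with 225, 212 and 201 cpm. Of 17 detected genes, 7 were at least 2-fold lower in replicate 3 than in both others, against 13.9% of all detected genes, and 5 at least 2-fold higher in replicate 1 than in both others, against 7.08%. These 5 genes have a GC content between 55.6% and 57.0%, and *Abhd5* one of 45.7%. After the curve on GC content was subtracted, the highest pool lay 2.64-fold above the lowest, against 5.48-fold before, with replicate 1 still highest and replicate 3 still lowest.

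Mitochondrial fatty acid oxidation had the smallest share of genes with a 2-fold range among the metabolic lists. Its 23 genes summed to 4481, 4389 and 3801 cpm, and 4 of 22 detected genes had a 2-fold range, against 43.3% of all detected genes. The range of the sum was 1.18-fold, and 1.36-fold after the GC curve was subtracted. *Acadl* and *Acadm*, dehydrogenases for long and medium chains, stood at 534, 524 and 599.8 cpm and at 472, 494 and 368 cpm. *Hadh*, which acts on hydroxyacyl-CoA, stood at 303, 356 and 222 cpm, and the carnitine carrier *Slc25a20* at 119, 92.1 and 95.8 cpm. *Cpt1a*, the carnitine palmitoyltransferase of liver, stood at 120.3, 133 and 114 cpm, while *Cpt1b*, the form of muscle and brown fat, stood at 0.426, 0.198 and 0.0661 cpm, close to the floor. *Acads*, for short chains, ranged most (102, 44.5 and 8.56 cpm). Of the 22 Krebs cycle genes, *Sdha* (572, 669 and 574 cpm), *Mdh1* (423, 398 and 402 cpm) and *Cs*, citrate synthase (441, 427 and 339 cpm), led, and 9 had a 2-fold range, a share near the background.

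For glucose use, *Slc2a4*, the insulin-regulated glucose transporter, stood at 122, 103 and 48.3 cpm. *Aldoa* (990.4, 490.2 and 365 cpm) and *Ldha* (576, 457 and 296 cpm) led the glycolytic genes of the list by counts. *Gapdh*, *Pgk1* and *Pgam1* can be counted too low, as said above, so this order and the sum of the list are uncertain. *Pfkfb3*, which makes the activator of phosphofructokinase, stood at 884, 872 and 875 cpm, one of the narrowest ranges in the tissue. *Pklr*, the liver pyruvate kinase, had no count. The list summed to 3124, 1943 and 1364 cpm, a 2.29-fold range that was 1.31-fold after the GC curve was subtracted, with replicate 2 then the lowest pool. *Pdk4*, which blocks pyruvate oxidation and which the study names for this fat, stood at 1023 ± 207 cpm.

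Of 37 secreted factors, 33 were detected. After *Lpl* and *Cfd*, *Adipoq* stood at 3426, 3403 and 2606 cpm, with a narrow range. *Lep*, which encodes leptin, stood at 1359.6, 1415 and 127 cpm, so that replicates 1 and 2 were alike and replicate 3 was the low one, with an 11.1-fold range. *Apoe*, of lipoproteins, stood at 3656, 1297 and 899 cpm, *Retn* (resistin) at 743, 678 and 409 cpm, *Angptl4*, an inhibitor of lipoprotein lipase, at 956, 763 and 240.0 cpm, and *Vegfa*, which drives vessel growth, at 812, 354 and 239 cpm. *Mest* and *Nnat*, an imprinted pair of genes linked to fat expansion, stood at 557, 661 and 62.9 cpm and at 549.5, 1139 and 121 cpm, and *Sfrp5*, an inhibitor of Wnt signals, at 179, 94.7 and 4.20 cpm. These 3 were low in replicate 3, as leptin was, and 11 of the 33 detected genes were at least 2-fold lower there than in both others, against the 13.9% of all detected genes. *Rarres2* (chemerin) and *Rbp4* stood at 280.0 ± 76.7 cpm and 187 ± 81.1 cpm, and *Nrg4* at 141 ± 37.1 cpm. Of inflammatory signals, *Tnf* stood at 0.947 ± 0.582 cpm, *Il6* at 0.175 ± 0.196 cpm and *Ccl2* at 4.32 ± 3.80 cpm. *Fgf21* ranged most (4.55, 2.31 and 0.0661 cpm), with 2 counts in replicate 3, under the floor. *Itln1*, which visceral fat secretes in humans, had no count.

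Of 36 transcription factors and cofactors, 35 were detected. *Pparg*, the receptor that directs adipocyte differentiation, stood at 280.4, 323 and 246 cpm and *Cebpa*, its partner, at 320.1, 314 and 211 cpm. *Ebf1* stood at 227, 287 and 201 cpm. *Srebf1*, which controls fatty acid synthesis, ranged widely (132, 52.3 and 18.1 cpm), as did *Esrra*, which controls mitochondrial genes (18.1, 4.52 and 1.22 cpm). *Mlxipl*, which senses glucose, stood at 96.0, 74.8 and 41.4 cpm, and *Ppara* at 8.07, 6.31 and 7.94 cpm. Of the corepressor complex that carries HDAC3, *Ncor1* stood at 339, 452 and 298 cpm, *Tbl1x* at 172, 251 and 214 cpm and *Gps2* at 36.1, 26.0 and 16.8 cpm. Of 11 histone deacetylases, all were detected. *Hdac2* stood at 63.5, 86.3 and 134 cpm. Per length, *Hdac3* had 109 ± 16.1 TPM, *Hdac2* 109 ± 41.4 TPM and *Hdac1* 35.6 ± 5.98 TPM, and *Hdac5* ranged most (81.5, 44.1 and 11.1 cpm). *Nr1d1* and *Nr1d2*, of the circadian clock, stood at 111, 126 and 28.2 cpm and at 45.5, 117 and 162 cpm, so that the first was lowest and the second highest in replicate 3. The hour of collection was not given in the sources used here.

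Fat depots keep the positional factors of the body region they form in. *Hoxc8* (66.4, 91.9 and 61.9 cpm), *Hoxa9* (47.0, 41.8 and 45.4 cpm), *Tbx15* (20.2, 24.4 and 61.3 cpm) and *Hoxc10* (23.4 ± 5.39 cpm) were detected, while *Wt1*, *Bnc1* and *Tcf21*, known from visceral fat, were at or under the floor of 3 counts in every pool. *En1* ranged most (0.710, 0.561 and 4.27 cpm). The list summed to 461, 464 and 540 cpm, and 9 of its 27 detected genes had a 2-fold range, against 43.3% of all detected genes.

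Among 51 receptors, 43 were detected. *Ghr*, for growth hormone, took the most counts with 1825, 1974 and 1545 cpm. *Adipor2*, for adiponectin, stood at 1667, 1826 and 1125 cpm, and *Npr3*, which clears natriuretic peptides, at 939.7, 1658 and 179 cpm, low in replicate 3. *Insr*, for insulin, stood at 243, 333 and 353 cpm. *Adrb3*, the beta-3 adrenergic receptor of fat, stood at 245, 192 and 194 cpm. Per length it had 173 ± 21.5 TPM, above *Adra1a* with 8.78 ± 4.10 TPM and *Adrb1* with 1.93 ± 1.06 TPM, and the 3 alpha-2 receptors stood under 1 cpm. *Lepr* stood at 12.3 ± 3.44 cpm, and *Glp1r* and *Mc4r* had at most 1 count in any pool. *Ffar1*, for free fatty acids, ranged most (2.95, 0.132 and 0.0661 cpm), with only 4 and 2 counts in replicates 2 and 3, close to the floor. A total of 18 of the 43 detected genes had a 2-fold range, a share near the 43.3% of all detected genes. In replicate 3, 9 were at least 2-fold below both others, against 13.9% of all detected genes, and in replicate 1, 4 were at least 2-fold above both others, against 7.08%. In replicate 1, 1 gene was at least 2-fold below both others, against 0.871% of all detected genes, and 1 was at least 2-fold above both others in replicate 2, against 0.381%.

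Cell types were read from 23 lists of marker genes by their summed cpm. Mature adipocyte markers stood at 84514, 75780 and 52461 cpm, the highest sum of the 23 lists, and 19 of 19 were detected. Without *Fabp4* the list gave 59629, 50840 and 38392 cpm, so the order of the pools did not rest on 1 gene. Markers of brown or beige adipocytes summed to 203, 155 and 218 cpm. Without *Ebf2*, which stromal progenitors also express and which stood at 50.6, 81.3 and 110.0 cpm, the list gave 152, 73.4 and 108 cpm, so that the highest pool turned from replicate 3 to replicate 1. *Ucp1*, the uncoupling protein that makes heat, stood at 16.3, 0.792 and 4.53 cpm, or 574, 24 and 137 counts, and 4 of the 11 detected genes were at least 2-fold lower in replicate 2 than in both others, against 1.89% of all detected genes. In replicate 1, 4 of the 11 were at least 2-fold higher than in both others, against 7.08%. *Cidea* (55.8, 18.5 and 39.0 cpm) and *Elovl3* were likewise lowest in replicate 2. *Prdm16*, of the beige lineage, stood at 17.2, 14.4 and 8.70 cpm and *Ppargc1a* at 8.52, 22.7 and 23.1 cpm, and *Dio2*, which activates thyroid hormone, at 0.341, 0.429 and 1.85 cpm.

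Stromal progenitor markers summed to 15842, 11018 and 19379 cpm. *Gsn* gave much of this. Without it the list stood at 5191, 5032 and 15950 cpm. *Pdgfra*, the receptor that marks these cells, stood at 84.5, 112 and 326 cpm, and *Dpp4*, of early progenitors, at 52.0, 48.7 and 325 cpm. *Cd34* stood at 147, 181 and 557 cpm and *Ly6a* at 198, 207 and 645 cpm, and 12 of 20 markers were at least 2-fold higher in replicate 3 than in both others, against 7.44% of all detected genes. *Pdgfrb* and *Pi16* did not share this, with 126, 98.9 and 64.8 cpm and 131, 67.3 and 88.6 cpm.

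Macrophage markers summed to 1313, 898 and 4984 cpm, and 11 of 16 were at least 2-fold higher in replicate 3 than in both others, against 7.44% of all detected genes. *Lyz2*, which encodes lysozyme, stood at 402, 278 and 1737 cpm, *Mrc1*, the mannose receptor of tissue macrophages, at 77.2, 97.4 and 629 cpm, *Adgre1*, the antigen F4/80, at 19.1, 24.0 and 163 cpm and *Ctss*, a lysosomal protease, at 73.7, 33.4 and 444 cpm. The complement genes *C1qa*, *C1qb* and *C1qc* stood at 103, 30.8 and 115 cpm, 109.8, 47.5 and 131 cpm and 83.7, 34.3 and 84.7 cpm and were not 2-fold higher in replicate 3 than in replicate 1. *Cd14* stood at 23.9, 17.8 and 18.6 cpm. *Trem2*, of lipid-laden macrophages, stood at 2.67, 1.65 and 20.8 cpm. The range of the list was 5.55-fold, and 5.73-fold after the GC curve was subtracted.

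Lymphocyte genes were highest in replicate 1 for the larger part. B cell markers summed to 1066, 380 and 350 cpm, and 15 of 16 were at least 2-fold higher in replicate 1 than in both others, against 7.08% of all detected genes. The exception, *Ebf1*, is also an adipocyte factor. Without it the list stood at 839, 93.2 and 148 cpm, and the mean sum of all 16 genes was 365 cpm without replicate 1, against 599 cpm with it. *Cd79a*, of the B cell receptor complex, stood at 30.5, 0.627 and 0.364 cpm, *Ms4a1* (CD20) at 21.2, 0.825 and 1.16 cpm and *Ighm* at 274, 52.9 and 96.6 cpm. The 18 T cell markers summed to 184, 33.1 and 46.5 cpm, and 15 were at least 2-fold higher in replicate 1 than in both others, against the same 7.08%. *Cd3e* stood at 7.39, 1.06 and 0.727 cpm, *Cd8a* at 13.1, 2.05 and 0.827 cpm and *Tcf7* at 18.4, 1.58 and 1.32 cpm, while *Il7r* was highest in replicate 3 (11.9, 2.48 and 20.7 cpm). *Ccl21a*, a chemokine of lymph node stroma, stood at 44.2, 0.726 and 0.926 cpm and *Ccr7*, its receptor, at 9.60, 0.495 and 0.661 cpm. Whether a lymph node was dissected out is not given in the sources used here, and its part was not tested. Plasma cell genes were uneven, since *Xbp1*, which other secretory cells express too, was level at 276, 279 and 283 cpm while *Igha* stood at 33.9, 2.34 and 0.0661 cpm.

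Skeletal muscle markers summed to 2063, 1315 and 5407 cpm. *Myh4*, the myosin of fast fibres, stood at 175, 142 and 1971 cpm, *Ttn* (titin) at 139, 187 and 853 cpm, *Tnnt3* at 194, 170.0 and 830.5 cpm and *Actn3* at 28.3, 9.25 and 134 cpm, all high in replicate 3, while *Acta1* and *Myh1* were highest in replicate 1 with 450.4, 138 and 143 cpm and 366, 249.5 and 70.4 cpm. Of 15 genes, 7 were at least 2-fold higher in replicate 3 than in both others, against 7.44% of all detected genes. Muscle RNA was thus found in every pool. The range of the list was 4.11-fold, and 5.38-fold after the GC curve was subtracted.

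Blood endothelium summed to 2536, 2144 and 1312 cpm. *Pecam1* (432, 360.1 and 253 cpm) and *Cdh5* (328, 297 and 139 cpm) led, and *Flt1* was level with 141, 145 and 136 cpm. *Cldn5*, of tight junctions, ranged most (78.4, 62.3 and 7.94 cpm). Pericytes and smooth muscle gave 2132, 1848 and 636 cpm, of which *Acta2*, smooth muscle actin, gave 1204, 734 and 54.6 cpm, and without it 928, 1114 and 581 cpm. *Rgs5*, of pericytes, stood at 303, 608 and 325 cpm. Lymphatic endothelium gave 88.9, 55.9 and 243 cpm, of which *Lyve1*, a gene that macrophages also express, gave 43.2, 20.8 and 148 cpm, whereas *Prox1*, which defines the lineage, stood at 2.02, 0.561 and 3.11 cpm.

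The other lists were small. Schwann cell markers summed to 285, 323 and 479 cpm with *Pmp22* and *Mbp* at the head, mast cell markers to 141, 119 and 178 cpm, dendritic cell markers to 81.2, 59.4 and 68.3 cpm and genes of dividing cells to 48.9, 33.6 and 90.9 cpm. Erythroid genes gave 346, 309 and 99.5 cpm, of which *Hbb-bs*, adult beta globin, gave 212, 206 and 73.0 cpm. NK cell markers summed to 12.2, 6.67 and 22.8 cpm, and neutrophil markers to 15.1, 8.85 and 11.8 cpm. Mesothelium gave 8.86, 6.27 and 6.98 cpm and epithelium of skin or mammary gland 10.8, 12.2 and 22.6 cpm. *Krt14*, *Krt5* and *Wt1* were at or under the floor, and *Csn2* and *Wap*, of milk, had no count. The liver list was high only through *Cyp2e1*, with 3788, 3122 and 5656 cpm. Without it the list gave 318, 264 and 81.5 cpm, mostly *Trf* and *Alb*, and *Apob* had no count.

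**Figure D4:**
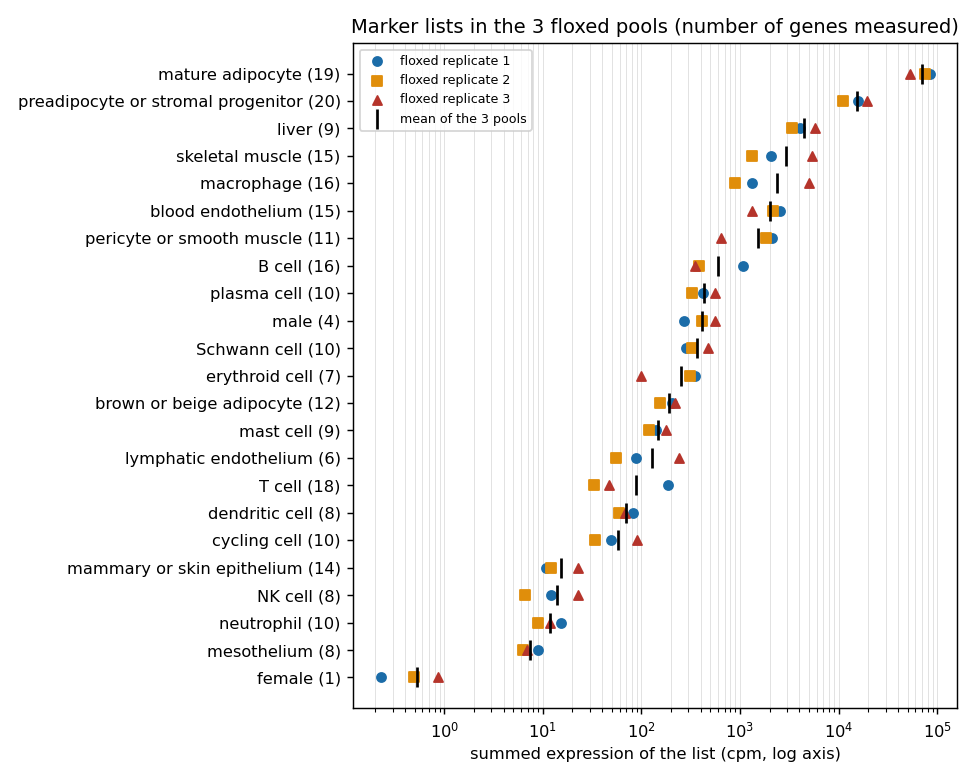
Summed expression in cpm (x axis, log scale) of 23 lists of marker genes (y axis, with the number of genes measured), with 1 marker for each floxed pool and a bar for the mean. Mature adipocyte markers lead at 52461 to 84514 cpm, macrophage and skeletal muscle lists are highest in replicate 3, and B and T cell lists are highest in replicate 1.

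Over all 13893 detected genes the median coefficient of variation among the pools was 31.1%, whereas counting error alone would give a median of 3.79%. It was 40.6% for genes between 1 and 10 cpm, 28.6% between 10 and 100 cpm, 26.2% between 100 and 1000 cpm and 29.4% at 1000 cpm or more, so it did not keep falling with the level. A biological coefficient of variation of 0.479 was estimated over all detected genes by edgeR. No GC curve was subtracted for it, so it includes the difference between pools by GC content. The highest pool was at least 2-fold above the lowest in 6016 genes. Of the 6016, 3205 were highest in replicate 1 and 3322 lowest in replicate 3. Without replicate 3 the number with a 2-fold range was 1520, without replicate 1 it was 3527 and without replicate 2 it was 5350, each among the genes detected in the pools kept, so that replicates 1 and 2 were closest and replicates 1 and 3 farthest apart. In the group with the highest GC content 77.7% had a 2-fold range, against 25.2% in the middle group. After the GC curve was subtracted, 3641 genes had a 2-fold range and the median coefficient of variation was 19.97%.

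**Figure D5:**
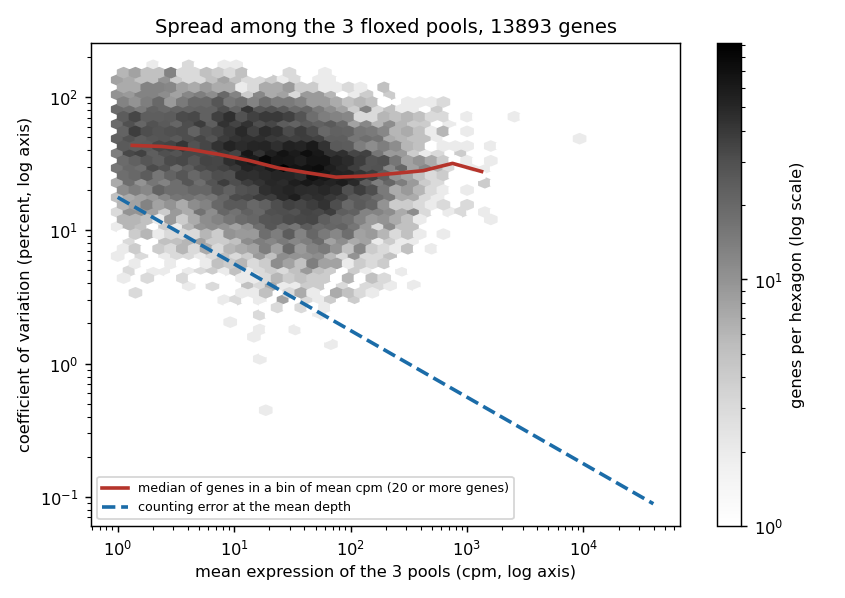
Coefficient of variation among the 3 floxed pools in percent (y axis, log scale) against mean expression in cpm (x axis, log scale) for 13893 detected genes, shaded by genes per hexagon, with the median per bin (solid line) and the value from counting error at the mean depth (dashed line). The median of the 3 ranges above 10 cpm lies between 26.2% and 29.4%, while counting error keeps falling.

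Among genes with a mean of at least 10 cpm, the 10 with the widest range were immune genes for the larger part. The immunoglobulin genes *Ighg2b*, *Igha* and *Ighg2c*, the B cell gene *Cd79a*, the scavenger receptor *Marco* and *Ccl21a* were all highest in replicate 1, as was *1700047G03Rik*. *Marco*, of macrophages in lymphoid tissue, stood at 29.5, 0.594 and 0.198 cpm, whereas 15 of the 16 macrophage markers were highest in replicate 3. *Cthrc1*, secreted by activated fibroblasts, and *Cxcl13*, which draws B cells, were highest in replicate 3 with 0.483, 1.12 and 32.8 cpm and 21.8, 5.98 and 304 cpm. The B cell chemokine thus stood highest in a pool in which B cell markers were low. The 10 genes with the lowest coefficient of variation were *Scnm1*, *Recql*, *Ercc6*, *Rnf144a*, *Caml*, *Pfkfb3*, *Eif4a1*, *Cdkn1c*, *Ric1* and *H2-Q4*. *Scnm1*, a splicing factor, stood at 22.4, 22.3 and 22.5 cpm, and *Eif4a1*, the helicase of translation initiation, at 132, 130.2 and 131 cpm.

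Long non-coding RNAs were 636 of the detected genes and took 1.01% ± 0.108 of the counts. *Neat1*, the scaffold of nuclear paraspeckles, stood at 3819.6, 3645 and 2013 cpm and *Malat1*, of nuclear speckles, at 287, 326 and 445 cpm. *Gm42418*, *1700020I14Rik* and *A530020G20Rik* had means of 378, 254 and 164 cpm. *Neat1* was lowest in replicate 3 and *Malat1* highest there.

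Of the remaining genes that the study names for this fat, *Bckdhb*, of branched-chain amino acid breakdown, stood at 146, 161 and 144 cpm, *Psat1*, of serine synthesis, at 71.2, 93.5 and 81.3 cpm and *Ednra*, an endothelin receptor, at 24.6, 28.2 and 34.8 cpm, each near level. *Serpina3k* stood at 2.67, 0.660 and 7.11 cpm, *Me3* at 4.37, 3.80 and 3.60 cpm and *Cox7a1*, a muscle and brown fat subunit of cytochrome c oxidase, at 5.65, 3.17 and 2.08 cpm. *Idh3a*, of the Krebs cycle, stood at 209, 201 and 242 cpm. *G6pd2* had 1 count in all, and is a copy of *G6pdx*, which stood at 325 ± 172 cpm.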

How the data were processed

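RNA from IngWAT of the 3 floxed pools was used, and the 3 H3atKO samples were not. Per the labels and methods, the authors prepared stranded poly(A)-selected libraries, trimmed the reads with cutadapt 1.3, aligned them to GRCm38 with STAR 2.4.2a and deposited raw read counts per Ensembl gene from HTSeq 0.6.1. A file ends in 5 tally lines for reads assigned to none of the genes, which did not enter the totals. Symbols, transcript lengths and GC content came from GENCODE M21 (46005 of 46517 identifiers matched).

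Counts were divided by the total on genes (cpm), and for TPM by the length of the principal transcript. With 1 group no test was run. TMM factors and dispersion came from edgeR 4.0.16 in R 4.3.3. The GC curve was a lowess fit (span 0.3) of each pool's log2 deviation on GC content (statsmodels 0.14.6). The dispersion and range steps were tested on simulated counts. These had a lower dispersion than the pools and no difference by GC content, so they do not show how the 2-fold calls behave on these data.

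Genes named are the 20 with the highest mean cpm and the 10 highest per length. The 2 to 4 highest members of each class and list and its widest member are named too. A list of 37 genes that the study names was included, which does not hold every gene it measured in this fat. Also named are the 10 genes with the widest and the 10 with the narrowest spread (mean of at least 10 cpm). The 5 highest non-coding RNAs and list members with 0 counts complete the choice. A few of these genes are not reported here. Members and lists were chosen with earlier results of these data known. Other list members that are named were chosen for their role, with values in view.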

Additional observations from a re-analysis of the deposited data

How the results depend on the processing

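The share of the 10 leading genes was 12.97% without the mitochondrial genome, 29.5% of values divided by exon length and 26.1% of values divided by principal transcript length. The share of the mitochondrial genome was 5.42% with the tallied reads in the total, 22.7% by exon length and 16.1% by principal transcript length, and that of lipid handling 8.47% by exon length. Division by principal transcript length was chosen after seeing the data. The number of genes with a 2-fold range was 3641 after the GC curve and 3421 among genes of at least 10 cpm, and the median coefficient of variation was 19.97% after the GC curve. The cause was not tested, except that the limit of 10 cpm leaves fewer genes.

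When each pool was left out in turn, detected genes numbered between 13743 and 13944, the 10 leading genes took between 16.995% and 18.6%, the mitochondrial genome between 7.26% and 10.2% and lipid handling between 10.6% and 13.03%. Mature adipocyte markers summed to between 64121 and 80147 cpm and B cell markers to between 365 and 723 cpm. Genes with a 2-fold range numbered between 1520 and 5350, and the median coefficient of variation lay between 18.9% and 37.9%.

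Of 41 list ranges recomputed after seeing the data, 37 stayed within 1.5 times, among them brown or beige adipocyte markers, whose range was 1.41-fold and 2.07-fold without *Ebf2*. The others were the Y-linked genes at 1.11-fold, lipolysis at 2.64-fold and glucose use at 1.31-fold, all after the GC curve, and B cell markers without *Ebf1* at 9.00-fold. Among the 37, ranges after the GC curve were 1.88-fold for mature adipocyte, 2.12-fold for stromal progenitor and 1.47-fold for blood endothelium markers. Before it they were 1.61-fold, 1.76-fold and 1.93-fold. B cell, T cell, pericyte or smooth muscle and lymphatic endothelium markers had ranges of 3.27-fold, 6.05-fold, 3.20-fold and 4.21-fold after it. Before it these were 3.05-fold, 5.56-fold, 3.35-fold and 4.36-fold. The 41 did not include the other lists given above without a leading gene. The range of stromal progenitor markers went from 1.76-fold to 3.17-fold without *Gsn*, and that of the liver list from 1.69-fold to 3.90-fold without *Cyp2e1*. Pericyte and smooth muscle markers went from 3.35-fold to 1.92-fold without *Acta2*, and mature adipocyte markers from 1.61-fold to 1.55-fold without *Fabp4*. No paired analysis was possible because a single group was described and no result came from a test. With 3 pools of 2 or 3 mice each, differences between single mice cannot be seen.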

Other observations

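The 71 genes at 1000 cpm or more also held enzymes of detoxification and redox defence that no list above covers, and these were chosen after their values were seen. *Mgst1*, a glutathione transferase, stood at 1344, 1383 and 1074 cpm, *Ephx2*, an epoxide hydrolase, at 1056, 1001 and 964 cpm and *Cdo1*, which oxidises cysteine, at 947, 914 and 1168 cpm. *Fth1*, the heavy chain of the iron store ferritin, stood at 1427, 1864 and 1553 cpm. All 4 were close to level in the 3 pools. *Selenop*, which encodes the selenium transport protein that the liver is best known for, stood at 1646, 1871 and 5643 cpm and was high in replicate 3. *Ces1d*, a lipase and carboxylesterase, stood at 1963, 2803 and 1813 cpm, and *Peg3*, an imprinted zinc finger gene, at 1437, 2239 and 1312 cpm.

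Of the genes of antigen presentation, *B2m*, the light chain of MHC class I, stood at 2183, 2482 and 3756 cpm. *Cd74*, the invariant chain of MHC class II, stood at 535, 227 and 112 cpm and *H2-Aa*, a class II chain, at 351, 242 and 241 cpm. *Cd74* was thus highest in replicate 1, where lymphocyte markers were highest, and lowest in replicate 3, where macrophage markers were highest. *C3* and *C4b*, of the complement cascade, stood at 970.4, 579 and 1342 cpm and at 1760.3, 1186 and 654 cpm, with opposite orders of replicates 1 and 3.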
